A study of Homo sapiens with 4 samples.

Results

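FOXK2 peaks on chromosome 8 were examined in the peak lists of 2 biological replicates of FOXK2 ChIP-seq from OVCAR5 cells. The members were every peak that the deposited lists place on chromosome 8, which were 553 of 12471 peaks (4.43%) in replicate 1 and 1126 of 27281 peaks (4.13%) in replicate 2. The chromosome was chosen because its peaks scored high in both lists, so the score values below are a description and carry no test. OVCAR5 is an ovarian cancer cell line, labelled high grade serous and grown from ascites, and the cells were at passages 4-6, with no treatment given in the labels. The groups were a single one, the FOXK2 antibody in replicates 1 and 2, and the 2 matched input libraries were not analysed here. With 2 libraries of 1 condition, no test between samples was possible, and peaks of one library are not replicates of each other.

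FOXK2 is a forkhead transcription factor that binds DNA through a winged-helix domain and prefers sites around TGTTTAC. Forkhead factors act both at promoters and at distal enhancers, and FOXK2 is known for control of autophagy, metabolic and cell cycle genes. Chromosome 8 carries MYC and its long noncoding neighbor PVT1 on the long arm, while the outer short arm carries genes such as DLC1, a candidate tumor suppressor. Gain of the long arm and loss of the outer short arm are often described in ovarian carcinomas. Copy number was not measured here, and its part in the values below was not tested.

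Each peak carried a HOMER score, which is its number of sequencing tags scaled to the size of the library. Scores were therefore ranked only within their own list, and a percentile of 100 is the highest score of that list. The score is a tag count that is not divided by the input, so it moves with anything that changes the number of tags at a locus. Under HOMER's default scaling to 10000000 tags, 1 tag was worth 0.189 score units in replicate 1 and 0.149 in replicate 2. The weakest peaks then held 16 and 21 tags, the median peaks of the lists 31 and 49 tags, and the median chromosome 8 peaks 44 and 72 tags.

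Chromosome 8 had the highest median score of the 22 autosomes in both lists. Its median peak stood at the percentile of 75.6 in replicate 1 and 74.6 in replicate 2, a mean of 75.1 ± 0.707 (SD, n = 2). The peaks of the other 21 autosomes had a median percentile of 49.1 in replicate 1 and 48.5 in replicate 2. The difference was therefore 26.5 percentile points in replicate 1 and 26.1 in replicate 2. The replicate 2 difference was smaller, at 12.2, with shared peaks only and at 14.1 when that list was cut to the length of the other. On the log2 scale, with each score divided by its list median, the median of chromosome 8 lay 0.50 above that of the other autosomes in replicate 1 and 0.58 above it in replicate 2. Chromosome 15 came next, with medians of 61.9 and 65.2, tied in replicate 1 with chromosome 7, whose medians were 61.9 and 57.1.

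**Figure D1:**
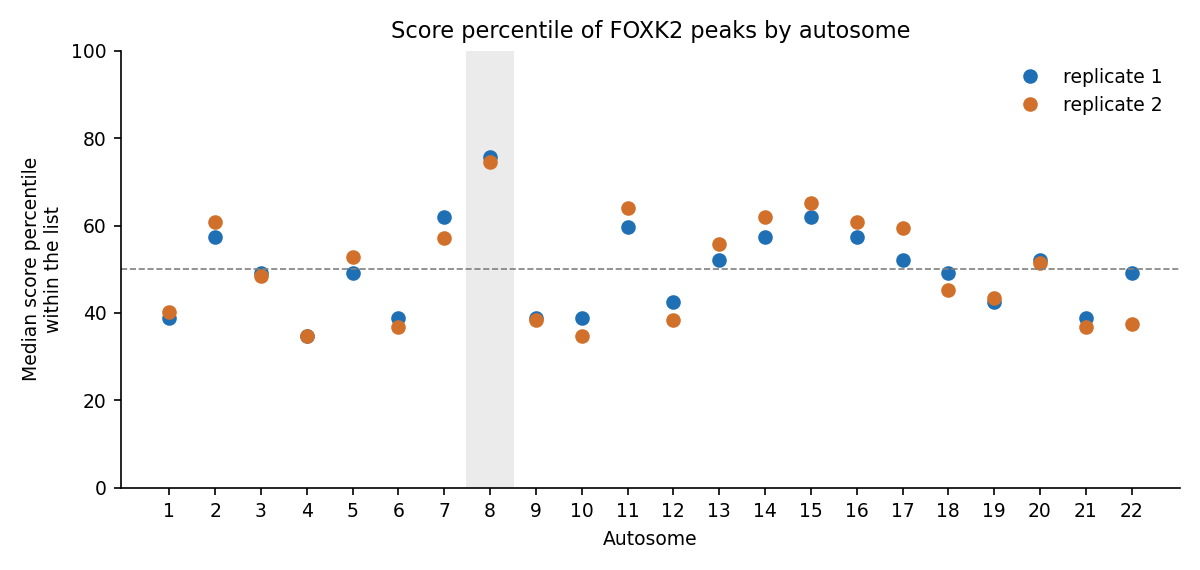
Median score percentile within the list (y axis, 0 to 100) of the FOXK2 peaks of each autosome (x axis), with 1 point for each replicate; the dashed line marks 50 and the shaded band marks chromosome 8. Chromosome 8 stands at 75.6 and 74.6, and chromosome 15 follows at 61.9 and 65.2, tied with chromosome 7 at 61.9 in replicate 1.

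The high scores were not matched by a high number of peaks. Chromosome 8 had 3.81 peaks per Mb in replicate 1 and 7.76 in replicate 2, against 4.33 and 9.44 on the other autosomes, and took places 16 and 17 of the 22 autosomes by this measure. The ratio of these densities was 0.851 ± 0.0407 (SD, n = 2). It was 1.02 when peaks were counted per annotated gene. It was 1.34 in the higher-scoring 50% of each list and 1.11 with lists of equal length, but these lists are cut by the score that chose the chromosome. The upper end of the score range was the part that chromosome 8 filled. The top 10% of each list held 128 of its peaks in replicate 1 (23.1%) and 250 in replicate 2 (22.2%), against 9.56% and 9.69% of the peaks of the other autosomes. The lowest 25% of each list held 8.86% and 10.2% of chromosome 8 peaks, against 24.9% and 25.8% elsewhere.

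Along the chromosome, the scores were low toward the end of the short arm and high over the rest. The chromosome was divided into 30 bins of 5 Mb, and the 27 bins with at least 5 peaks in each list were compared. Of these, 22 had a median percentile above 50 in both replicates (81.5%), against 157 of 487 bins on the other autosomes (32.2%). Those 22 bins were bins 7 to 27, a run of 21 bins from 30 to 135 Mb, and bin 29, from 140 to 145 Mb. The 5 compared bins before 30 Mb all had medians under 50 in both replicates.

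**Figure D2:**
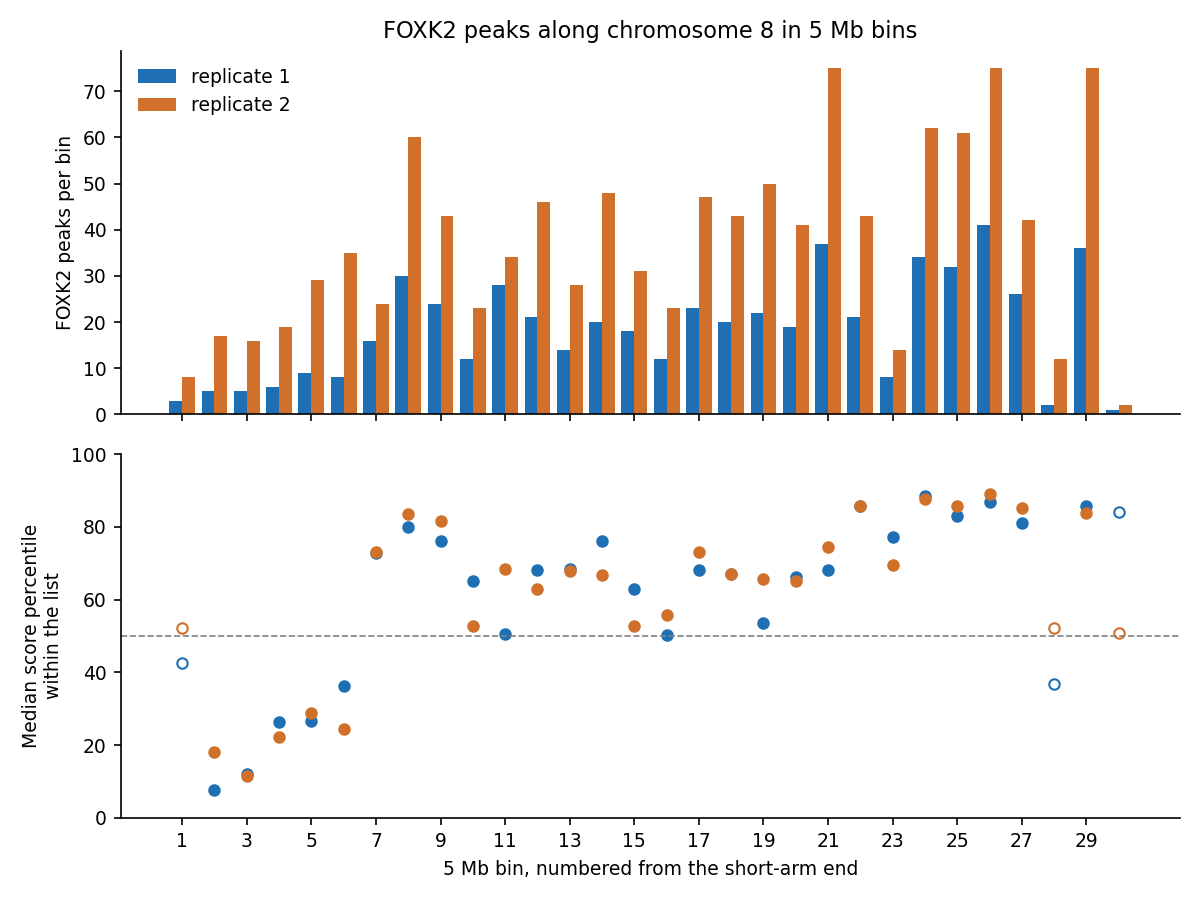
FOXK2 peaks per 5 Mb bin (upper panel, bars, y axis in peaks) and median score percentile per bin (lower panel, points, y axis 0 to 100) along chromosome 8, with bins numbered from the short-arm end and replicates in separate colors. Open points are bins with fewer than 5 peaks in a list, and the dashed line marks 50. Bins 2 to 6 lie below 50 in both replicates, and bins 7 to 27 lie above it.

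The contrast within the chromosome reached both ends of the genome-wide range. Among 514 autosomal bins ordered by the mean of their medians in both lists, bin 24 (115 to 120 Mb) came first, with medians of 88.4 and 87.8. Bin 26 (125 to 130 Mb), which holds MYC, came second, with medians of 86.9 and 88.9. Bins 2 and 3, from 5 to 15 Mb, came at places 513 and 514. Their medians were 7.55 and 18.1 in bin 2 and 12.2 and 11.5 in bin 3. Each of them rested on 5 peaks in replicate 1, and on 17 and 16 peaks in replicate 2. The mean medians of the bins thus spanned 76.3 percentile points on chromosome 8, the widest span of any autosome, although its low end rests on bins 2 and 3. By the SD of the bin means, chromosome 7 came first with 22.7 and chromosome 8 second with 22.6.

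Of the 20 highest bins, 8 lay on chromosome 8, 10 on chromosome 7 and 2 on chromosome 17. Chromosome 7 resembled chromosome 8 in the height of its best bins but not in their extent, since 12 of its 30 compared bins (40%) were above 50 in both replicates. Chromosomes 11 and 15 resembled it in extent, with 21 of 26 bins and 13 of 16 bins above 50, but had none of the 20 highest bins. No test of these differences was made.

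From the bin profile, 4 stretches were set after their values were seen, at edges of 30, 45 and 105 Mb. The outer short arm, from 0 to 30 Mb, held 36 peaks in replicate 1 and 124 in replicate 2, at 1.2 and 4.13 peaks per Mb. Its median percentile was 26.7 in replicate 1 and 22.2 in replicate 2. The inner short arm, from 30 to 45 Mb, held 70 and 127 peaks with medians of 78.7 and 80.8. The inner long arm, from 45 to 105 Mb, held 246 and 489 peaks with medians of 64.0 and 68.0. The outer long arm, from 105 Mb to the end, held 201 and 386 peaks with medians of 85.6 and 86.0, at 5.01 and 9.62 peaks per Mb. The order of the 4 stretches was the same in both replicates, but the edges were set after both lists were seen.

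On the outer long arm the low end of the distribution was raised as well as the strongest peaks. In log2 units relative to the list median, the lower 10% point of the outer long arm lay at 0.17 in replicate 1 and 0.10 in replicate 2, above the median of the whole list. The same point was at -0.50 and -0.81 on the other autosomes. At the upper 10% point the outer long arm stood at 1.71 and 1.96, against 0.95 and 1.14 on the other autosomes. In the outer short arm, the lower 10% point was -0.63 in replicate 1 and -0.91 in replicate 2. The median of that stretch was -0.31 and -0.53. A division at 45 Mb, the bin edge nearest the centromere, hid this contrast. The long-arm side exceeded the short-arm side by 5.50 percentile points in replicate 1 and 17.1 in replicate 2, while an edge at 30 Mb gave 50.2 and 55.0. With lists of equal length, the replicate 2 difference at 45 Mb was 0.93.

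**Figure D3:**
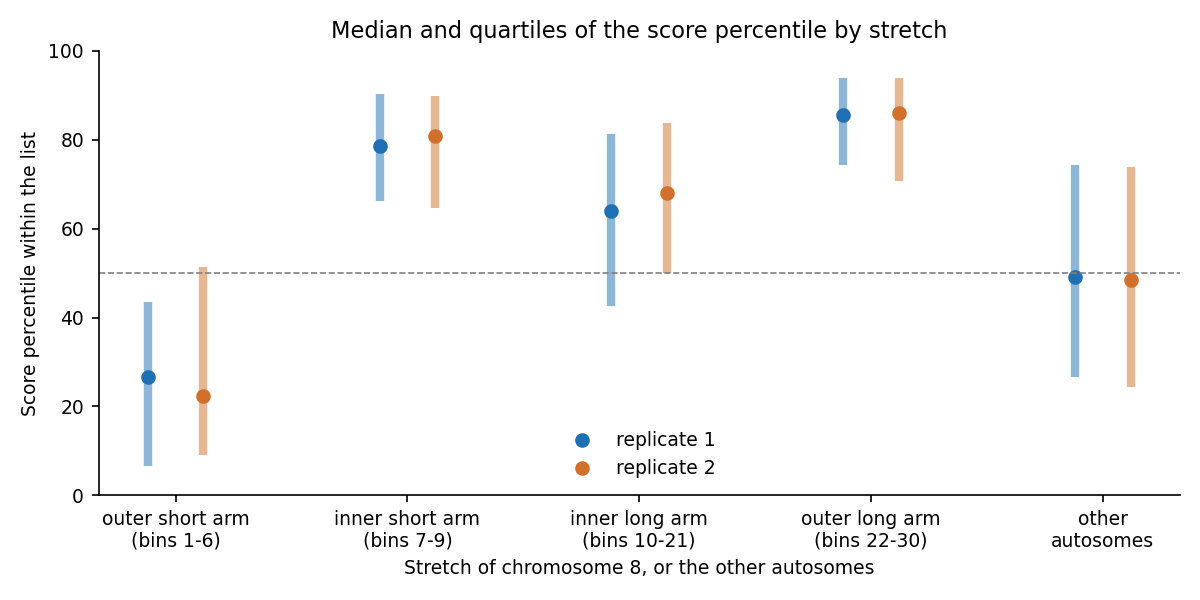
Score percentile within the list (y axis, 0 to 100) for 4 stretches of chromosome 8 and for the other autosomes (x axis), where points are medians and bars run from the lower to the upper quartile, in separate colors for the replicates. The outer short arm stands at 26.7 and 22.2 and the outer long arm at 85.6 and 86.0, on either side of the other autosomes at 49.1 and 48.5.

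The change on the short arm fell in a stretch with few shared peaks. Shared peaks are those of one list that overlap a peak of the other by at least 1 bp. Before it, low and high peaks were mixed, with the best shared peak of ZNF395 at 91.0 and 90.9 and that of BNIP3L at 83.4 and 95.8. The last one of low score was near SARAF, a regulator of store-operated calcium entry, at chr8:30082388-30082598 (hg38), with percentiles of 3.87 in replicate 1 and 11.5 in replicate 2. The next shared peak, near the fucosyltransferase gene FUT10 at chr8:33104719-33104929, had percentiles of 64.0 and 75.3. The next 3 shared peaks, assigned to FUT10 again, MAK16 and SNORD13, lay between the percentiles of 87.3 and 96.5 in both lists. At the edge near 105 Mb the bin medians went from 68.0 and 74.6 in bin 21 to 85.6 and 85.7 in bin 22, while single shared peaks on both sides overlapped in percentile. The last shared peak before it, near the LDL receptor family gene LRP12, stood at 79.3 and 93.2, and the first after it, near the transcriptional cofactor gene ZFPM2, stood at 96.7 and 98.3, but the one after that stood at 64.0 and 80.8.

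High scores were found in promoter, intron and intergenic peaks of chromosome 8 alike. Promoter peaks had a median percentile of 83.4 in replicate 1 and 85.7 in replicate 2, against 57.3 and 64.1 for promoter peaks of the other autosomes. Intron peaks stood at 73.5 and 72.4, against 45.9 and 46.9. Intergenic peaks stood at 74.2 and 71.7, against 45.9 and 43.5. Within each of these 3 classes, chromosome 8 had the highest median of the 22 autosomes in both lists. Peaks farther than 100 kb from any TSS stood at 75.6 and 73.2, against 42.6 and 40.2, and here chromosome 8 came second in replicate 1 and first in replicate 2. Peaks without a partner in the other list were lower, at 49.1 in replicate 1 and 63.0 in replicate 2, against 26.7 and 34.8 for such peaks elsewhere. These values come from the scores that chose the chromosome, so they describe the pattern and add no support to it.

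By contrast with their scores, chromosome 8 peaks were less often at promoters. The deposited annotation placed 88 of 553 peaks at promoters in replicate 1 (15.9%, Wilson 95% interval 13.1% to 19.2%) and 141 of 1126 in replicate 2 (12.5%, 10.7% to 14.6%). On the other autosomes the shares were 21.9% (21.1% to 22.6%) and 18.1% (17.6% to 18.5%). Intergenic peaks made up 43.4% and 46.1% on chromosome 8, against 33.8% and 36.1%. The median distance to the nearest TSS was 26.9 kb in replicate 1 and 36.6 kb in replicate 2, against 15.6 kb and 19.6 kb elsewhere. The intervals cover counting error only, and neighboring peaks are not independent of each other. By promoter share, chromosome 8 was at places 20 and 21 of the 22 autosomes, so it was not alone in its low share.

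The forkhead heptamer TGTTTAC, sought on either strand up to 100 bp from the middle of each peak, was present in 202 of 553 chromosome 8 peaks in replicate 1 (36.5%, Wilson 95% interval 32.6% to 40.6%). In replicate 2 it was present in 370 of 1126 peaks (32.9%, 30.2% to 35.7%). The other autosomes gave 30.2% (29.4% to 31%) and 28.0% (27.4% to 28.5%). Control windows placed 2000 bp to each side of the same peaks held it in 3.8% and 3.55% of cases on chromosome 8 and in 2.82% and 2.85% elsewhere. The higher share did not hold among the highest-scoring peaks. Over all peaks, chromosome 8 was second by this share in replicate 1 and first in replicate 2, and chromosome 4, whose median score percentile was 34.8 in both lists, took the other of the first 2 places with 38% and 32.8%. Chromosome 4 thus had a like share of the heptamer at low scores. The AP-1 site, TGAGTCA or TGACTCA on either strand, was in 18.4% and 20.3% of chromosome 8 peaks, against 16.3% and 16.4% elsewhere. Its control windows gave 2.62% and 2.49% on chromosome 8 and 3.04% and 3.01% elsewhere. The median G and C content was 45% on chromosome 8 in both lists, against 47.5% and 46.5%.

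High scores on chromosome 8 did not bring a matching gain in recovery between replicates. Of its 553 replicate 1 peaks, 421 overlapped a replicate 2 peak (76.1%, Wilson 95% interval 72.4% to 79.5%), against 74.8% on the other autosomes (74.0% to 75.5%). In replicate 2, 421 of 1126 overlapped a replicate 1 peak (37.4%, 34.6% to 40.3%), against 34.3% (33.7% to 34.9%). Among the shared peaks, scores of the replicates were close in rank, with a Spearman rank correlation of 0.902 over 421 pairs on chromosome 8 and 0.847 over 8842 pairs elsewhere, a description across peaks. The median log2 ratio of the replicate 2 score to the replicate 1 score was 0.82 on chromosome 8 and 0.79 elsewhere, so both libraries gave chromosome 8 about the same place.

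When peaks of like score were set side by side, the overlap on chromosome 8 split at 30 Mb. Each list was divided by score into 4 groups of about equal size, from group 1 (lowest) to group 4 (highest), a comparison added after the data were seen. In group 4 of replicate 1, 248 of 278 peaks from 30 Mb on were overlapped (89.2%, Wilson 95% interval 85.0% to 92.3%), against 97% on the other autosomes (96.3% to 97.6%). In group 2 the shares were 41.4% (30.6% to 53.1%) and 68.0% (66.4% to 69.6%). In replicate 2, group 4 gave 58.5% (54.3% to 62.6%) against 76.6% (75.5% to 77.6%), and group 3 gave 20.1% (15.8% to 25.1%) against 39.9% (38.7% to 41.1%). The share was lower from 30 Mb on in all 4 groups of both lists, although in group 1 of replicate 2 the intervals overlapped, at 4.08% and 4.89%.

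The heptamer shares were also set side by side by score group. In group 4, which held 283 of the 553 peaks and 552 of the 1126, chromosome 8 was not above the other autosomes, with 39.2% (33.7% to 45%) against 42.2% (40.4% to 44%) in replicate 1 and 32.6% (28.8% to 36.6%) against 35.1% (33.9% to 36.3%) in replicate 2. In groups 1 to 3 its shares were from 32.1% to 36.7% in replicate 1, against 24.3% to 29.1%. In replicate 2 they were from 29.9% to 40%, against 25.1% to 26.6%. The intervals overlapped in all these comparisons except group 2 of replicate 2 (32.6% to 47.9% against 24.3% to 26.4%).

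In replicate 1 the outer short arm went the other way in its overlap. Of its 36 replicate 1 peaks, 34 were overlapped (94.4%, 81.9% to 98.5%), although 17 of them lay in score group 1. In that group 15 of 17 were overlapped (88.2%, 65.7% to 96.7%), against 50.4% on the other autosomes and 8 of 32 (25%) on the rest of chromosome 8. The heptamer was in 19 of the 36 peaks (52.8%, 37.0% to 68.0%), and the median focus ratio, the share of tags on the strand and side of the center where a sharp peak places them, was 0.85 against 0.758 on the other autosomes. In replicate 2 the same stretch held 124 peaks, of which 34 were overlapped. That share of 27.4% (20.3% to 35.9%) was below the 34.3% of the other autosomes, though its interval includes that value, so the higher overlap was not seen over all replicate 2 peaks. There the heptamer was in 34.7% and the median focus ratio was 0.8 against 0.755. The stretch was also richer in G and C, with medians of 53% and 49.5%. By score group, the interval of the outer short arm lay clear of that of the other autosomes in groups 1 and 2 of replicate 1 and in group 3 of replicate 2. The replicate 1 values rest on 36 peaks, and this stretch was set after the scores were seen.

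**Figure D4:**
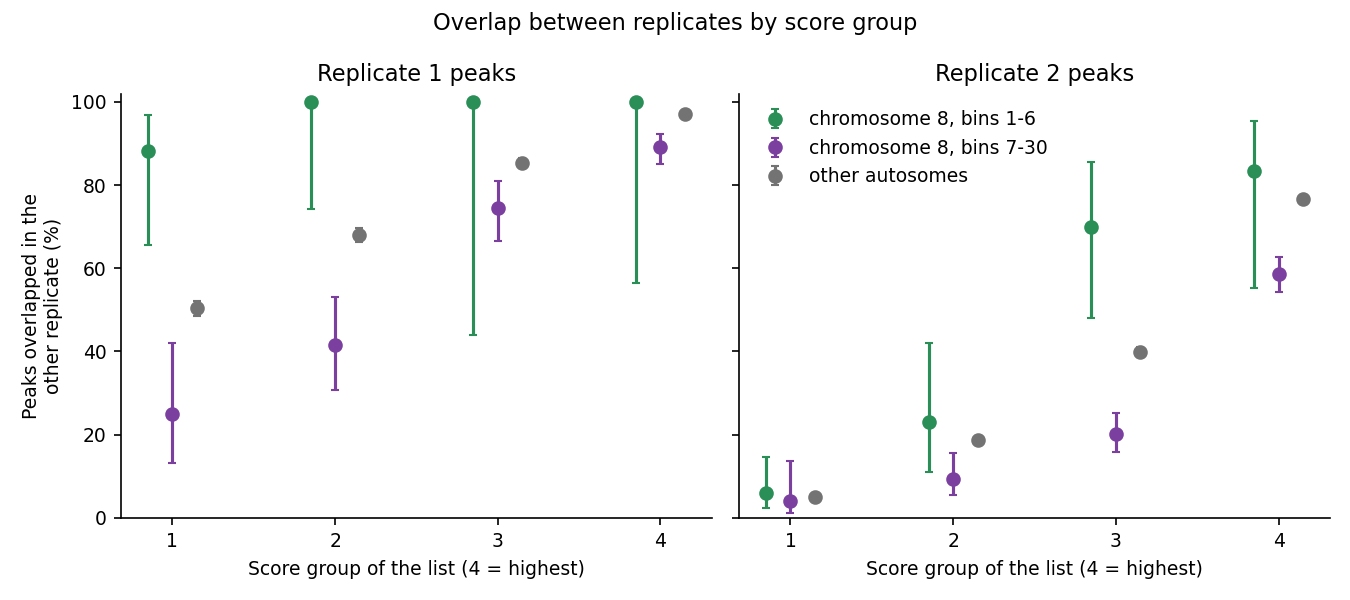
Share of peaks overlapped by a peak of the other replicate (y axis, percent) within each score group of the list (x axis, 4 is the highest), for chromosome 8 bins 1-6, bins 7-30 and the other autosomes, with Wilson 95% intervals as bars. The points of bins 7-30 lie below those of the other autosomes and the points of bins 1-6 above them, but the intervals of bins 1-6 reach those of the other autosomes in groups 3 and 4 of replicate 1 and in groups 1, 2 and 4 of replicate 2.

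The strongest peaks of chromosome 8 were next ordered by the mean percentile of each shared pair, over 421 pairs. The first 20 had ranks of 255 or better in replicate 1 and 272 or better in replicate 2. By the replicate 1 annotation 12 were at promoters, 5 in introns and 3 intergenic. The long arm held 18 of them, 13 beyond 105 Mb, and the outer short arm held none. Of the first 100 pairs, 62 lay beyond 105 Mb and 1 before 30 Mb. Of all 421 pairs, 339 lay beyond 45 Mb, 161 beyond 105 Mb and 34 before 30 Mb.

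FBXO32, which encodes the muscle atrophy F-box protein of a ubiquitin ligase, had the highest score of each list. Its promoter peak at chr8:123541187-123541397 scored 188.3 in replicate 1 (998 tags), and its partner at chr8:123541165-123541421 scored 387.9 in replicate 2 (2608 tags), centered at -39 and -40 bp from the TSS. NDUFAF6, an assembly factor of respiratory complex I, came second in each list. Its promoter peak at chr8:94895702-94895912 scored 104.9 in replicate 1, and the partner scored 224.1 in replicate 2, at 39 and 44 bp from the TSS. FBXO32 lies on the outer long arm in bin 25, whose median percentiles were 82.9 and 85.7. NDUFAF6 lies on the inner long arm in bin 19, with lower medians of 53.6 and 65.7.

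A gap followed these 2 peaks. PCMTD1, a protein of the isoaspartate methyltransferase family, came next on the chromosome at rank 20 of both lists, with scores of 43.8 and 87. ZNF250, a zinc finger gene near the long-arm end, had scores of 43 and 79.6 at its promoter, and a further promoter peak of ZNF250 was in place 19. The promoter of RAD21, a subunit of the cohesin ring, scored 36 and 68.1. ZBTB10, a zinc finger repressor gene, scored 29.1 and 77.2. Promoters of ATAD2, a bromodomain ATPase, and MAF1, the repressor of RNA polymerase III, scored 30.4 and 27.5 in replicate 1 and 44.2 and 50.6 in replicate 2. TRIB1, a pseudokinase that brings substrates to the COP1 ubiquitin ligase, had a promoter peak of 26.8 and 52.1, and EEF1D, a subunit of the translation elongation factor, one of 24.9 and 39.4. On the inner short arm, the promoter of TACC1, a centrosomal coiled-coil protein, scored 22.1 and 43.4.

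Distal peaks stood among the same 20. An intergenic peak assigned to SNTB1, a syntrophin, lay at -352229 bp from its TSS and scored 38.5 and 81.2, and one at 142420 bp from the TSS of PDP1, which activates pyruvate dehydrogenase, scored 25.1 and 53.5. Peaks within introns were at SYBU, a kinesin adaptor (25.8 and 49.2), at AGO2, the slicing Argonaute (22.4 and 41.8), and at NSMCE2, a SUMO ligase of the SMC5/6 complex (20.6 and 40.3). The intronic peaks of LINC01606 and near SNORD38D and the intergenic one near LOC101927657 complete the 20, with scores from 21.9 to 37.4 in replicate 1. Assignment is to the nearest TSS in the deposited files and does not show which gene a distal peak acts on.

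**Figure D5:**
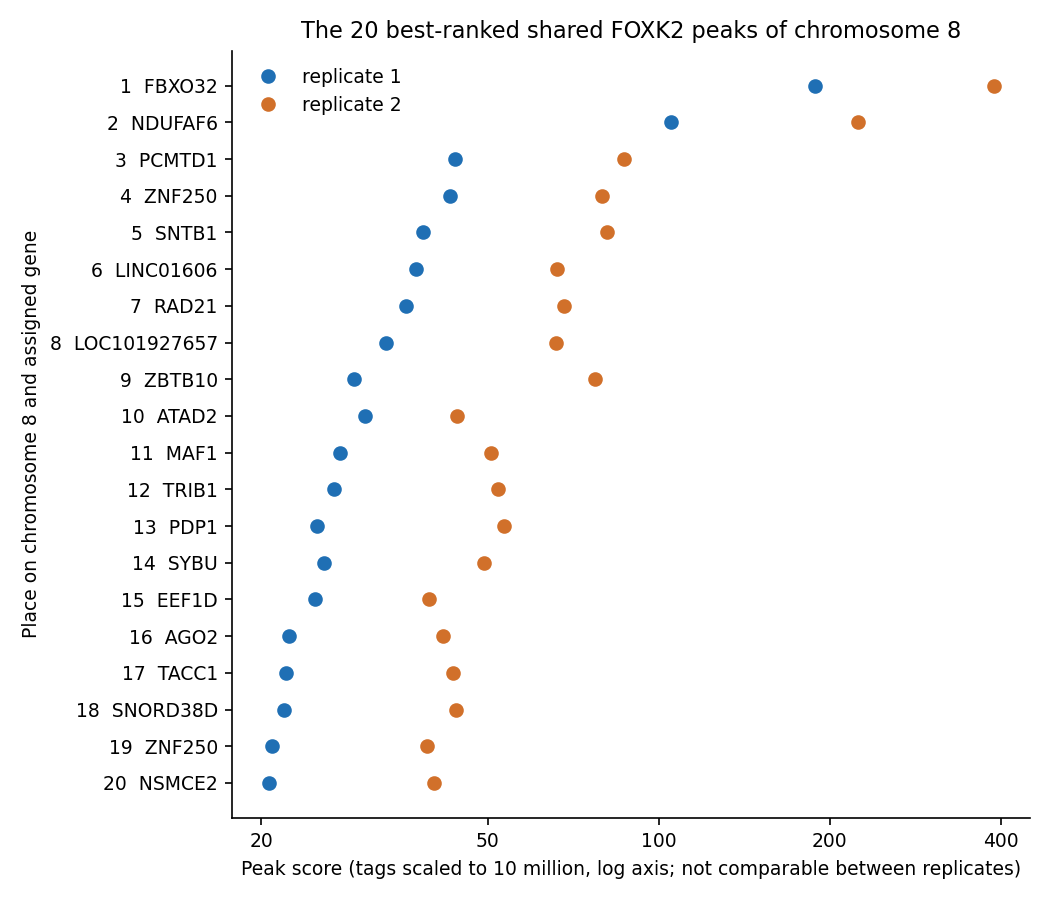
Peak scores (x axis, log scale, tags scaled to 10000000) of the 20 best-ranked shared peaks of chromosome 8 (y axis, by place and assigned gene), with 1 point for each replicate. Scores are scaled to each library, so only the order within a color can be compared: FBXO32 and NDUFAF6 lead in both, with 188.3 and 104.9 in replicate 1.

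The heptamer was present in both peaks of 10 of these 20 pairs and in neither peak of the other 10. Among the 20 best pairs of the other autosomes, 16 held it in both peaks and 11 were at promoters. The FBXO32 pair lacked TGTTTAC within 100 bp of either center but held 2 copies of the shorter core TGTTT, counted on both strands. That core is common, being in 76.9% of chromosome 8 peaks and 54.8% of their control windows in replicate 1. The NDUFAF6, RAD21, TRIB1 and ZNF250 promoter pairs each held the heptamer. The ATAD2, MAF1, EEF1D and TACC1 promoter pairs held neither TGTTTAC nor TGTTT. An absent match says only that these letters are not in this window.

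On the outer short arm, the best shared peak was at FBXO25, another F-box gene, in place 33 of the 421 pairs. It lay at chr8:406847-407057 in the first exon and scored 18.5 in replicate 1 (percentile 97.2) and 35.5 in replicate 2 (98.7). The best shared pairs of the next bins were weaker. MCPH1, a centrosome and DNA damage response gene, had percentiles of 38.9 and 51.4, and FDFT1, which encodes squalene synthase, had 12.2 and 68.0. MTUS1, a microtubule-associated candidate tumor suppressor, had 80.5 and 90.3 at its promoter, XPO7, a nuclear transport receptor, had 74.2 and 91.1, and ZNF395 had 91.0 and 90.9. Of the 36 and 124 peaks of this stretch, 2 and 6 were in the top 10% of their list.

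From 30 Mb on, the best shared pair of each bin up to bin 27 had a percentile of at least 90.03 in both lists. On the outer short arm, the pairs of FBXO25 and ZNF395 also reached this value. The best pairs are maxima over all shared pairs of a bin, and the bins of other autosomes were not counted. On the inner short arm these pairs were at RNF122, TACC1 and the histone acetyltransferase gene KAT6A. From the centromere outward along the inner long arm, they were at MCM4, a subunit of the replicative helicase, PCMTD1, LINC01606, the chromatin remodeler gene CHD7, DNAJC5B, the translocon gene TRAM1, STMN2, ZBTB10, ATP6V0D2, NDUFAF6, PTDSS1 and NCALD. Beyond 105 Mb they were assigned to SYBU, MIR2053, RAD21, FBXO32, LOC101927657 and NDRG1, a hypoxia and stress response gene. In all these stretches the gene named is the one with the nearest TSS, which can be distant. In replicate 1 the pair lay at -310462 bp from the TSS of STMN2 and at -182260 bp from that of MIR2053. The pairs of LOC101927657 and NDRG1 lay at 49933 and -44377 bp. In bin 28, from 135 to 140 Mb, the lists held 2 and 12 peaks, and the best pair stood at 38.9 and 83.4. It was assigned to FAM135B but lay at -161640 bp from its TSS in replicate 1.

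MYC lay in the dense stretch from 127 to 130 Mb, which held 26 peaks in replicate 1 and 41 in replicate 2. Their median percentiles were 86.2 and 87.9. Of them, 25 of the 26 and 40 of the 41 were above 50, and 23 of each list were shared. In each list 1 of them was annotated to a promoter. The whole outer long arm had medians of 85.6 and 86.0 and a lower 10% point above the list median. The scores of this stretch were thus near those of its surroundings. The MYC peak itself, in the first exon at chr8:127735748-127735958, scored 14.0 in replicate 1 (percentile 93.9) and 35.7 in replicate 2 (98.7) and held the heptamer in both. Within the body of PVT1 as GENCODE gives it, chr8:127794526-128187101, there were 10 peaks in replicate 1, all of them shared, and 17 in replicate 2. Their medians were 91.6 and 94.7. The deposited files assign these peaks to the nearest start sites, those of MIR1204, MIR1207, MIR1208 and TMEM75, and none to PVT1. The strongest by mean percentile, in PVT1 intron 1 and assigned to MIR1204, scored 20.9 and 35.8. Upstream of MYC, an intronic peak of CCAT1, a long noncoding RNA gene, scored 20 and 38.2. The stretch was set after its values were seen.

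In 7 lists of chromosome 8 genes grouped by function or arm, members were counted where a peak of each list was assigned to them, and medians run over the members with a peak in that list. Of all 715 protein-coding genes that RefSeq lists on chromosome 8, matched in the same way, 214 had a peak in both lists (29.9%, Wilson 95% interval 26.7% to 33.4%). The share was 52 of 292 on the short-arm side of 45 Mb (17.8%) and 162 of 423 on the long-arm side (38.3%). For scores, the best peak of each of the 335 chromosome 8 genes with a peak in replicate 1 had a median percentile of 79.3, and of 533 genes in replicate 2 of 80.8. For genes of the other autosomes the medians were 57.3 and 61.9. The lists are described by their counts and medians, and nothing is claimed to be particular to any of them.

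Long-arm cancer genes had peaks in both lists for 17 of 22 members, with median best percentiles of 93.9 and 97.6. PTK2, the focal adhesion kinase gene, had a shared peak at 86.9 and 89.2, GRHL2, an epithelial transcription factor gene, at 92.6 and 97.5, and TPD52 at 95.4 and 97.6. TRPS1, a GATA-type repressor gene, had 8 assigned peaks in replicate 1 and 11 in replicate 2, and its best, at -300704 bp from the TSS in replicate 1, stood at 95.6 and 98.0. RECQL4, a DNA helicase gene, and PVT1 had no peak assigned in either list. Short-arm cancer genes had peaks in both lists for 8 of 20 members, with medians of 81.5 and 84.2. FGFR1, a growth factor receptor gene, and NSD3, a histone methyltransferase gene, both on the inner short arm, had shared peaks at 91.8 and 94.4 and at 92.4 and 95.8. The death receptor gene TNFRSF10B, on the outer short arm, stood at 38.9 and 60.7, and DLC1 had peaks only in replicate 2, the best at 9.03. No peak was assigned to 9 members, among them CSMD1, CLU and ADAM9. Since assignment is to the nearest TSS, such a member can still hold a peak in its body. The pair assigned to SNORD38D, in an intron at chr8:39032241-39032451 in replicate 1, lay beyond the GENCODE start of ADAM9 at chr8:38996754. That pair stood at 98.2 and 99.2.

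Autophagy, lysosome and atrophy genes had peaks in both lists for 10 of 18 members, with medians of 74.2 and 84.7. Beside FBXO32 and TRIB1, RB1CC1, a subunit of the autophagy-initiating ULK1 complex, had a promoter peak at 90.1 and 91.4, and TP53INP1, an autophagy and p53 target gene, one at 83.4 and 92.6. The promoter peak of the mitophagy receptor gene BNIP3L, on the outer short arm, stood at 83.4 in replicate 1. Its overlapping replicate 2 peak, at 95.8, was assigned to the pseudogene SDAD1P1, and the replicate 2 peak that counts for BNIP3L was another, outside the promoter, at 18.1. The best peaks of CHMP4C, LAPTM4B, ATP6V1H, ATP6V1C1, KLF10 and VPS13B stood between 61.9 and 89.4 in the lists where they had one. Other members with a peak were lower. The promoter pair of ASAH1, the acid ceramidase gene, stood at 3.87 and 52.9, that of MTMR9, a myotubularin-related gene, at 42.6 and 36.7, and CTSB, the cathepsin B gene, had a single peak, at 0.449 in replicate 1. VPS37A, CHMP7, ATP6V1B2 and MTMR7 had none. Endoplasmic reticulum genes had peaks in both lists for 6 of 8 members, with medians of 88.6 and 94.3. TRAM1, a part of the protein translocon, stood at 93.6 and 97.5, EIF4EBP1, a brake on cap-dependent translation, at 92.6 and 96.5, and the ER ubiquitin ligase gene RNF139 at 91.0 in replicate 1, with a replicate 2 partner assigned to RNF139-AS1 at 96.2.

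Mitochondrial genes had peaks in both lists for 7 of 14 members, with medians of 68.0 and 77.2. NDUFAF6, PDP1 and OXR1, an oxidation resistance gene at 94.2 and 97.2, were high. Among respiratory chain genes, COX6C had a shared peak at 68.0 and 77.2, NDUFB9 had a peak at 51.4 in replicate 2 only, and UQCRB and CYC1 had no assigned peak. Cell cycle and DNA repair genes had peaks in both lists for 4 of 15 members, which were RAD21, MCM4, RAD54B and TERF1, with medians of 69.8 and 60.7. Transcription factor genes had peaks in both lists for 7 of 15 members, with medians of 79.3 and 85.3. SNAI2, an epithelial-mesenchymal transition factor gene, had a shared peak at 84.2 and 83.4. SOX17, an endoderm and endothelial factor gene, had a peak in each list, at percentiles of 12.2 and 26.7, which did not overlap.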

How the data were processed

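FOXK2 ChIP-seq peaks of OVCAR5 cells were analysed in 2 biological replicates. According to the paper, the authors mapped single-end 50-bp reads to hg38 with Bowtie2 2.2.6 and called peaks with HOMER 4.10. The headers show that each library was called and annotated separately. The deposited score of each peak is its tag number scaled by the authors' HOMER run, and the deposited focus ratio is a fraction. The lists were used as deposited. Scores were turned into mid-rank percentiles within each list. Peaks spanned 210 bp and 256 bp, and an overlap of at least 1 bp made a pair shared. Bins held each peak by its center. Motifs were searched in hg38, and genes were counted in GENCODE release 44. No sequence of chromosome 8 is printed, and 1 listed gene is not reported here.

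Beside shares stand 95% Wilson intervals for counting error alone. No test was made, since 2 libraries of 1 condition allow none. Depth was read from the score steps. All distinct scores under 10 were whole multiples of 1 tag within rounding, which gives about 53000000 and 67200000 tags under HOMER's default scaling.

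The chromosome, the gene lists and the rules were chosen with earlier results of these data known. Genes were named from the 20 shared pairs with the best mean percentile, the best shared pair of each bin and 7 gene lists; the genes nearest the edges at 30 and 105 Mb and the microRNA and CCAT1 peaks beside MYC were added after their values were seen. Alternatives were other sets of peaks, list lengths, bins, windows and overlaps. The code was tested on simulated data with known answers. Python 3.11.15 was used with numpy 2.4.6, pandas 2.3.3, scipy 1.17.1, pysam 0.24.0, matplotlib 3.10.9 and samtools 1.23.1.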

Additional observations from a re-analysis of the deposited data

How the results depend on the processing

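No paired analysis was possible because both FOXK2 libraries belong to 1 group, with no second condition to pair them with. Alternatives were judged by whether they moved a mean over both replicates by more than 1 SD, or the share of bins beyond its Wilson interval. Of 50 alternative values of 8 results, 32 stayed within these limits, 15 moved and 3 reversed. Of the 32, 14 leave out a replicate of a mean over 2, which can never move it by 1 SD, so 18 could have moved. Of the 15, 2 are in another unit and cannot be set against that limit. The 3 with an edge at 30 Mb were chosen after seeing the data. The median percentile of 75.1 became 84.9 with shared peaks only, 72.2 without promoter peaks, 69.2 with lists of equal length and 77.1 from 30 Mb on. The difference of 26.3 percentile points from the other autosomes became 16.5, 26.7, 20.3 and 28.3 in the same order, and in other units 13.1 percentage points as a share of the top 10% and 0.54 on the log2 scale. Chromosome 8 had the highest median of the 22 autosomes in both lists in the settings with shared peaks only, without promoter peaks, with lists of equal length and with ranks among autosomal peaks, but the lead over chromosome 7 in replicate 2 was narrow with lists of equal length (62.9 against 61.0) and with shared peaks (89.4 against 86.0). The density ratio of 0.851 reversed to 1.02 per annotated gene (1.05 and 0.981 in replicates 1 and 2), 1.34 in the higher-scoring 50% of each list and 1.11 with lists of equal length (0.880 and 1.34). Cutting a list by score favors a chromosome chosen for high scores, so the last 2 follow in part from their construction. The promoter share of 14.2% became 16.99% in the higher-scoring 50%. The heptamer share of 34.7% became 40.7% in shared peaks and 29.985% within 50 bp. The difference of 11.3 points between the sides of 45 Mb became 52.6 at 30 Mb and 3.21 with lists of equal length (5.50 and 0.93). All bins with at least 10 peaks in each list (100%, 21 of 21) were above 50, since that minimum left out the outer short arm. When each replicate was left out, values ran from 74.6 to 75.6 for the median percentile, 26.1 to 26.5 for its difference, 5.50 to 17.1 for the sides of 45 Mb, 0.822 to 0.880 for the density ratio, 37.4% to 76.1% for the overlapped share, 12.5% to 15.9% for promoters and 32.9% to 36.5% for the heptamer, and the share of bins was 81.5% either way. The cause was not tested for the other changes. An SD over 2 libraries is a rough yardstick.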
